A study of Mus musculus with 6 samples.

Results

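The genes described here encode TALE homeodomain proteins, the DNA-binding partners of HOX proteins: Pbx2, Pbx3 and Pbx4, Meis1, Meis2 and Meis3, and Pknox1 and Pknox2. They were chosen by name, as features of the array whose annotation gives exactly 1 gene symbol equal to one of these 8. All 8 were found, each by 1 feature, among 30702 genes named by a single-gene feature. The name TALE refers to an insertion of amino acids in a loop of the homeodomain. PBX proteins bind DNA together with HOX proteins and raise the selectivity of the HOX partner. MEIS proteins and the PKNOX proteins, also called PREP, bind PBX, keep it in the nucleus and join HOX and PBX on shared sites. In blood formation Meis1 is known as a partner of HOX proteins in stem cells and as a leukaemia gene.

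RNA came from mouse embryonic stem cells of the line labelled iRunx, which were left to differentiate as embryoid bodies, cell clumps that start germ layer formation in culture. After dissociation on day 4, flow cytometry collected the cells with the VEGF receptor Flk1 and without PDGFRα, among which endothelial and blood precursors are found. The control group had 3 arrays of iRunx cells sorted without HOXB4, and the HOXB4 group had 3 arrays of iRunx cells that expressed HOXB4 from a retrovirus marked with tdTomato. All 6 samples shared line, day and sort; whether controls carried an empty vector, which species HOXB4 came from and whether a Runx gene was induced are not stated in the labels. Per the series text the replicates come from independent experiments, and the question addressed is how HOXB4 alters expression in such cells.

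Values are log2 summaries made by the authors with RMA, so a step of 1 is a change of 2-fold in signal. Array medians were 5.10 to 5.22 over genes and 3.06 to 3.15 over 23 background features, which match no mouse sequence. Kdr, which encodes the sorting marker Flk1, stood between 13.7 and 14.3 in all arrays. In the endothelial markers, array 2 of each group differed from the other arrays of its group. For 7 endothelial markers the mean was 8.21, 10.2 and 8.32 in the controls, in order of replicate number, and 11.2, 8.01 and 9.79 in HOXB4 cells. None of the 7 had a mean under the background medians. In RNA from a sorted population, fewer cells of a type and less RNA per cell cannot be told apart.

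Of the 8 cofactors, 0 reached a Benjamini-Hochberg adjusted p below 0.05 in limma's test, as did 0 of all genes (0% called), although 2513 genes (8.19%) had an unadjusted p below 0.05, among them 0 of the 8 cofactors. In HOXB4 cells 4 cofactor genes lay higher and 4 lower, where 60.0% of all genes lay lower. The median of their differences was -0.03 on the log2 scale, beside -0.04 over all genes. For 0 of the 8 did the HOXB4 values all lie above or all below the control values, a separation found for 13.5% of all genes (3.24% above and 10.2% below). The median size of the difference, sign aside, was 0.21 for the cofactors and 0.12 for all genes.

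**Figure D1:**
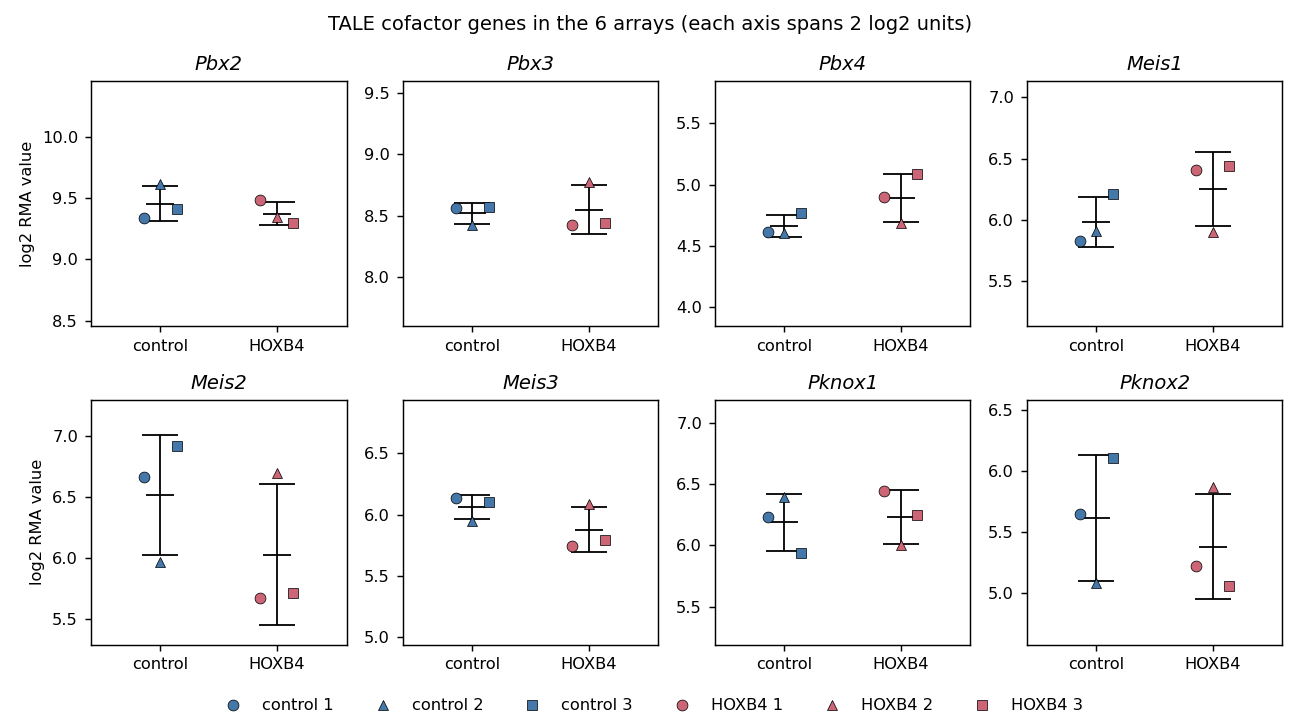
Log2 RMA value of each TALE cofactor gene in every array, 3 controls (blue) and 3 HOXB4 samples (red), with symbols for the replicate number, and with the group mean and SD as bars; each vertical axis spans 2 log2 units. Meis2 runs from 5.67 to 6.92 and Pknox2 from 5.06 to 6.11, with control 2 among the low arrays and HOXB4 2 among the high ones, while the 6 values of Pbx2 and Pbx3 stay close together.

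Meis2 and Meis1 had the largest differences of the 8 genes, in opposite directions. Meis2, which acts in heart outflow and neural crest development in the mouse, stood at 6.66, 5.97 and 6.92 in the controls and at 5.67, 6.69 and 5.72 in HOXB4 cells, each in order of replicate number, as in all that follows. HOXB4 1 and 3 were the lowest arrays, HOXB4 2 lay among the controls and control 2 lay nearest to HOXB4 1 and 3, so the groups overlapped. The group means were 6.52 ± 0.49 and 6.03 ± 0.57 (SD, n = 3 each), a log2 difference of -0.49 (SE 0.34), or 1.40-fold lower in HOXB4 cells. Its 95% interval ran from -1.31 to 0.33 (limma adjusted p = 0.699), so a large fall and a small gain are both within the error. The difference was -0.82 without HOXB4 2 (limma adjusted p = 0.275), -0.76 without control 2 (limma adjusted p = 0.656) and -0.29 without control 3 (limma adjusted p = 0.803), the ends of its range with 1 array left out being -0.82 and -0.29. Control 2 and HOXB4 2 were also left out together, a choice made after the values were seen. The reason was that these arrays stood apart within their groups, as in Meis2 and the endothelial mean. Limma's array weights, lower for noisier arrays, were 1.26 for control 2 and 0.76 for HOXB4 2. They were lowest for control 1 (0.71) and highest for HOXB4 3 (1.66). Without both arrays numbered 2 the difference of Meis2 was -1.09 (SE 0.14, limma adjusted p = 0.026) in a fit of 2 arrays a group. In that fit 2.66% of all genes were called. Since the pair was left out in view of the values, that p is no independent test of Meis2.

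Meis1, required in the mouse for definitive blood formation and megakaryocytes, lay the other way. It stood at 5.82, 5.91 and 6.21 in the controls and at 6.40, 5.90 and 6.44 in HOXB4 cells. HOXB4 1 and 3 were the highest arrays, and HOXB4 2 lay between controls 1 and 2. The means were 5.98 ± 0.20 and 6.25 ± 0.30 (SD, n = 3 each), a log2 difference of 0.27 (SE 0.18, 95% interval -0.16 to 0.69, limma adjusted p = 0.686). It was 0.44 without HOXB4 2 and 0.17 without HOXB4 3, with limma adjusted p = 0.265 and 0.902.

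Meis3, a hindbrain gene in zebrafish and Xenopus, had values of 6.13, 5.95 and 6.10 in controls and 5.74, 6.08 and 5.79 in HOXB4 cells. It showed the same order as Meis2 at the low end: HOXB4 1 and 3 lowest, then control 2. Its difference was -0.19 (SE 0.12, 95% interval -0.47 to 0.10, limma adjusted p = 0.680), and -0.29 without HOXB4 2 (limma adjusted p = 0.326). Within each array, the log2 value of Meis1 minus that of Meis2, centred on its mean over the 6 arrays, was -0.68, 0.10 and -0.55 in controls and 0.89, -0.63 and 0.88 in HOXB4 cells. The balance thus leaned to Meis1 in HOXB4 1 and 3, whereas HOXB4 2 lay with controls 1 and 3. The shift between groups, 0.75 on the log2 scale, had p = 0.3 in a two-sided exact permutation test over the 6 arrays, whose smallest possible p is 0.1. Over the 7 pairs of genes within a subfamily, compared in the same way, the adjusted exact p ran from 0.525 to 0.7.

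Promoter sequence is shown for Meis2 and Meis1 because these paralogues differed in opposite directions. RefSeq windows of assembly GRCm38.p6 were at hand for 5 of the 8 genes, and the 250 bases before 1 annotated start are given 5′ to 3′ on the gene's strand. The Meis2 window lies at chr2:116064620-116064869 and the Meis1 window at chr11:19018970-19019219, both on the minus strand.
Meis2: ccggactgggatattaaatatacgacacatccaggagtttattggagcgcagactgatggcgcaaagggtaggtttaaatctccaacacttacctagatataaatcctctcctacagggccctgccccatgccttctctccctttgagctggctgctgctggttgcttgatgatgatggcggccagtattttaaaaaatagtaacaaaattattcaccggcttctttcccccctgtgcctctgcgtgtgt
Meis1: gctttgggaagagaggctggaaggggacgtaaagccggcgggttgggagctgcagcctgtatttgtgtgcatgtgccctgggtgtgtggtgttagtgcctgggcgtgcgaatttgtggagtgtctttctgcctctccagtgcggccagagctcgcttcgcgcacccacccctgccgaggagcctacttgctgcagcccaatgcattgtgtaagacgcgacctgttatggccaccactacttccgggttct
The windows were searched on both strands for TGACAG, the core bound by MEIS and PREP proteins, and for TGATNNAT, a form of the joint PBX and HOX site; letters of a match would be in capitals. Neither motif was found in the windows of Meis1, Meis2, Meis3, Pbx2 or Pbx4. Over all 32851 promoter windows of this length, 15.9% held TGACAG and 7.68% held TGATNNAT, so a window with neither is common and says only that these letters are not there. The windows differ in base composition, with 47.6% G and C for Meis2 and 59.6% for Meis1.

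Pbx2 and Pbx3 had the smallest spread of the 8 genes over the arrays. Pbx2, whose loss alone leaves mice without an obvious defect, stood at 9.33, 9.62 and 9.41 in controls and at 9.48, 9.34 and 9.29 in HOXB4 cells. Pbx3, needed in the mouse for the neural control of breathing, stood at 8.56, 8.42 and 8.57 in controls and at 8.43, 8.78 and 8.44 in HOXB4 cells. The highest and lowest arrays differed by 1.25-fold for Pbx2 and 1.28-fold for Pbx3, and the groups overlapped for both. Their differences were -0.08 (SE 0.11, 95% interval -0.34 to 0.18) and 0.03 (SE 0.12, 95% interval -0.26 to 0.32), with limma adjusted p = 0.827 and 0.951. The bounds of both intervals lie within 0.34 of 0 on the log2 scale, closer than for the other 6 genes.

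Pbx4, best known from the testis in the mouse, had the lowest mean of the 8 genes. Its values lay above the background medians of 3.06 to 3.15 and below the array medians over genes, 5.10 to 5.22. Of the 23 background features, 20 had means below its lowest value, as for Pknox2, against 22 or 23 for the other 6 genes. It stood at 4.61, 4.61 and 4.77 in controls and at 4.90, 4.69 and 5.08 in HOXB4 cells, with HOXB4 1 and 3 above every control and HOXB4 2 between controls. Its difference was 0.23 (SE 0.12, 95% interval -0.06 to 0.52, limma adjusted p = 0.643), the smallest p of the 8 genes. Without HOXB4 2 it was 0.33 (limma adjusted p = 0.304).

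The PKNOX genes varied between arrays without a shift between groups that exceeded that spread. Pknox1, whose loss in the mouse impairs blood and vessel development, stood at 6.23, 6.39 and 5.94 in controls and at 6.44, 6.003 and 6.25 in HOXB4 cells. Its difference was 0.04 (SE 0.16, 95% interval -0.34 to 0.43, limma adjusted p = 0.948) and changed sign when control 3 or HOXB4 1 was left out (-0.08 and -0.06). Pknox2, its paralogue, stood at 5.65, 5.08 and 6.11 in controls and at 5.22, 5.87 and 5.06 in HOXB4 cells. Control 2, HOXB4 1 and HOXB4 3 were its low arrays, as for Meis2. Its difference was -0.23 (SE 0.31, 95% interval -0.96 to 0.50, limma adjusted p = 0.828), with -0.50 without control 2, -0.47 without HOXB4 2 and 0.02 without control 3.

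**Figure D2:**
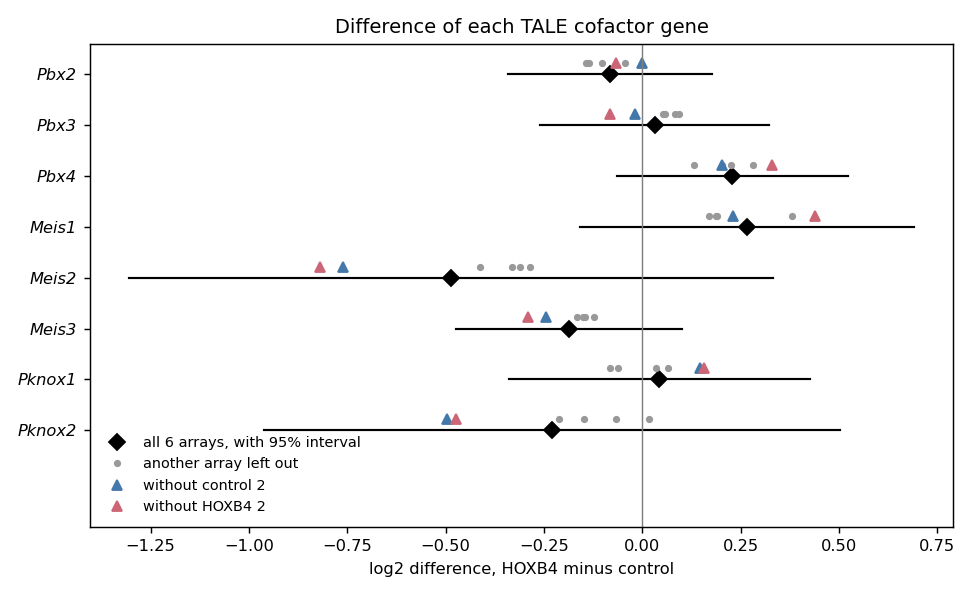
Log2 difference, HOXB4 minus control, of each TALE cofactor gene over all 6 arrays (diamonds) with limma's 95% interval (lines), and with 1 array left out (small symbols; blue triangles without control 2, red triangles without HOXB4 2). All 8 intervals cross 0, and the Meis2 estimate moves from -0.49 to -0.82 without HOXB4 2.

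Leaving out HOXB4 2 widened the differences of Meis1, Meis2, Meis3, Pbx4, Pknox1 and Pknox2, and leaving out control 2 widened those of Meis2, Meis3, Pknox1 and Pknox2. HOXB4 2 lay within the range of the controls for 7 of the 8 cofactors, Pbx3 being the exception, where HOXB4 1 did so for 3 and HOXB4 3 for 2. Over all genes HOXB4 1, 2 and 3 lay within the controls' range for 41.0%, 55.0% and 46.9%. Without HOXB4 2, the groups separated for 4 of the 8 cofactors (Meis1, Meis2, Meis3 and Pbx4), the same 4 that then had an unadjusted p below 0.05. In that fit the groups separated for 31.9% of all genes, 13.9% had an unadjusted p below 0.05 and 0.150% were called after adjustment, among them 0 of the cofactors. These counts rest on 8 genes and on an array left out after its values were known.

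The cofactors differed in their spread over the arrays, group difference included. Over the 6 arrays Meis2 had an SD of 0.55, larger than that of 96.5% of all genes, and Pknox2 one of 0.44, larger than that of 94.1%. The SD of Pbx2 was 0.12, larger than that of 29.7%. Likeness of pattern was measured as the root mean square difference, over the 6 arrays, between values centred on each gene's own mean. By this measure Pknox2 was nearest to Meis2 among the cofactors, at 0.18, then Meis3 at 0.36, and Meis1 was farthest at 0.67. Meis2, Meis3, Pknox2 and Pbx3 had the same 3 arrays below their own median, which were control 2, HOXB4 1 and HOXB4 3. Pknox1 showed the reverse, with control 1, control 3 and HOXB4 2 below its median and these 3 arrays above it.

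**Figure D3:**
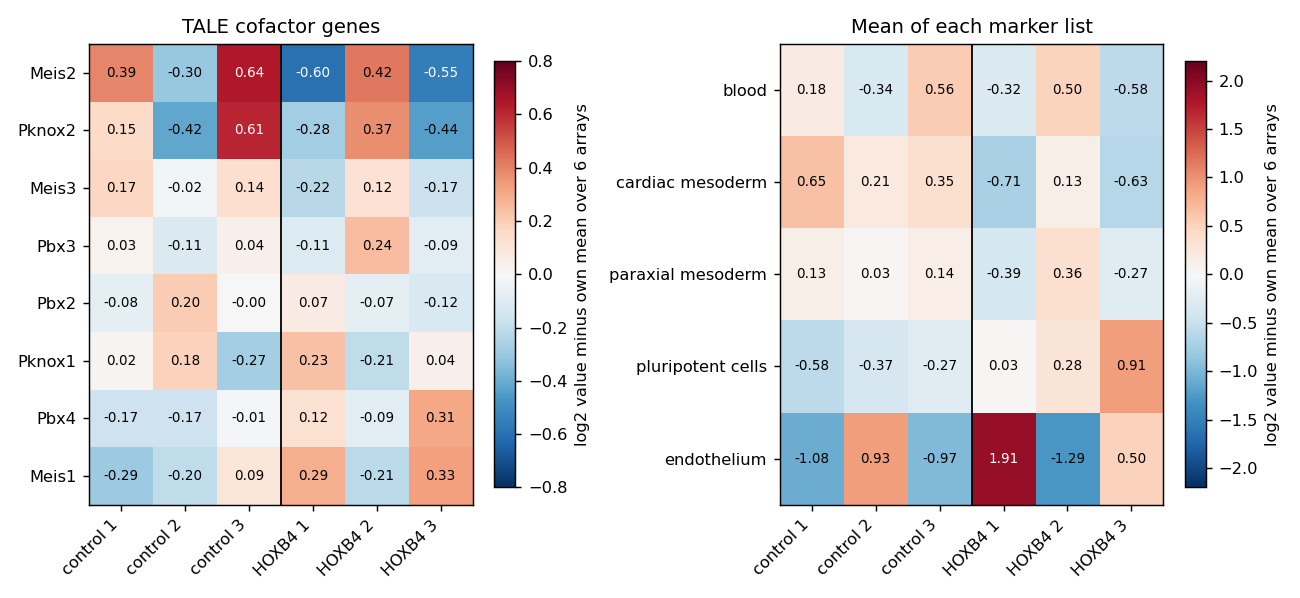
Value of each TALE cofactor gene (left) and mean of each list of cell type markers (right) in the 6 arrays, on the log2 scale, minus its own mean over the arrays; red is higher and blue lower, and the line divides controls from HOXB4 cells. Meis2 and Pknox2 are low in control 2, HOXB4 1 and HOXB4 3, the arrays in which the endothelial mean is high and the blood mean low.

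The means of the endothelial and blood marker lists moved with this array pattern. The 3 arrays with low Meis2 and Pknox2 were those with the high endothelial means of 10.2, 11.2 and 9.79, against 8.01 to 8.32 in the other 3. The mean of 7 blood markers, embryonic globins among them, was 6.99, 6.46 and 7.37 in controls and 6.49, 7.30 and 6.23 in HOXB4 cells, and thus lowest in the same 3 arrays. Between groups, 6 of these 7 genes lay lower in HOXB4 cells (60.0% of all genes did), the globin genes Hbb-bh1 (-1.15) and Hbb-y (-0.45) most of all. Itga2b lay higher (0.50), so the mean does not speak for every blood marker. The mean of 7 cardiac mesoderm markers was 7.79, 7.35 and 7.49 in controls and 6.44, 7.28 and 6.51 in HOXB4 cells. It was low in HOXB4 1 and 3 but not in control 2, as Meis1 and Pbx4 were high in HOXB4 1 and 3 and not in control 2. Hand1 (-3.22) and Tbx20 (-1.89) had the largest group differences of the cardiac list and carried most of its shift. The rest ran from -0.36 for Myl7 to 0.26 for Tnnt2, the only gene of this list that lay higher. The paraxial mesoderm mean ranged from 5.55 to 5.65 in controls and from 5.13 to 5.87 in HOXB4 cells, and the pluripotency mean from 7.04 to 7.35 and from 7.65 to 8.54. The endoderm mean ranged from 4.97 to 5.27 in controls and from 4.20 to 4.93 in HOXB4 cells, and the neural ectoderm mean from 5.38 to 5.59 and from 5.57 to 6.12. In the pluripotency list all 5 genes lay higher, from 0.43 for Esrrb to 1.74 for Dppa4. The endoderm and neural ectoderm shifts each came mostly from 1 gene. Cxcr4 differed by -2.38, while the rest of the endoderm list ran from -0.19 to 0.04. Tubb3 differed by 1.95, while the rest of the neural ectoderm list ran from -0.18 to 0.10. The part of cell makeup in the cofactor differences was not tested.

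Among 1542 named genes with an SD of at least 0.75 times that of Meis2, those nearest to it in pattern over the 6 arrays were Hba-ps4, Acta2, Pcolce and Optc. Their root mean square differences from Meis2 were 0.060, 0.088, 0.088 and 0.093, where the median candidate was at 0.87. Hba-ps4, an alpha globin pseudogene, stood at 5.16, 4.45 and 5.36 in controls and at 4.30, 5.15 and 4.23 in HOXB4 cells. Its signal may hold that of related globin genes, which share sequence with it. Acta2, smooth muscle actin, stood at 8.98, 8.20 and 9.21 in controls and at 8.06, 8.997 and 8.22 in HOXB4 cells. Pcolce, an enhancer of procollagen processing, and Optc, an extracellular matrix protein, had the same low arrays, control 2, HOXB4 1 and HOXB4 3. With 6 arrays and this many candidates, close matches are to be had for many patterns, and nothing is read from them about function.

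Genes around the cofactors were looked up by position in the RefSeq table. Of the 16 nearest measured protein-coding neighbours, 1 on each side of each gene, 0 passed limma's test. Of these neighbours 13 lay lower, beside 60.0% of all genes, and the differences ran from -0.38 to 0.21. The groups separated for 6 of the 16, 5 lower and 1 higher (37.5%, beside 13.5% of all genes). BC052040, next to Meis2, stood at 8.42, 8.57 and 8.38 in controls and at 8.02, 8.16 and 8.05 in HOXB4 cells, a difference of -0.38 (SE 0.09, limma adjusted p = 0.605), so its groups separated where those of Meis2 did not. Tmco5, on the other side of Meis2, differed by 0.01 (SE 0.09). Both genes were named after their values were seen. Etaa1 and Spred2, which flank Meis1, differed by -0.18 (SE 0.08) and -0.10 (SE 0.20), against 0.27 for Meis1 itself. The long noncoding RNA genes that overlap Meis1 and Meis2, Gm16141 and G630016G05Rik, differed by -0.09 (SE 0.11) and 0.03 (SE 0.12), and the feature of the former averaged 3.10 in controls, at the level of the background medians.

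Related genes gave no called change either. Of the 9 other TALE superclass genes (TGIF, Iroquois and Mkx), 0 passed and 5 lay lower, beside 60.0% of all genes. Their median difference was -0.09. Tgif2, a repressor in TGF-beta signalling, had values of 8.04, 8.11 and 7.90 in controls and 7.89, 7.89 and 7.66 in HOXB4 cells. Tgif2 and Irx5 were the 2 of these genes whose groups separated, both lower, where 10.2% of all genes separated downwards. Their differences were -0.20 (SE 0.11) and -0.19 (SE 0.12), and the values of Irx5, 3.28 to 3.80, were close to the background medians. Mkx, a factor of tendon development, differed by -0.28 (SE 0.14) and Irx4, of the cardiac ventricle, by -0.15 (SE 0.10), and HOXB4 2 lay among the controls for both.

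Of 10 measured genes for proteins that bind or modify PBX, MEIS or PREP proteins, 0 passed and the median difference was 0.06. Mybbp1a, which encodes a PREP1-binding nucleolar protein, stood at 13.21, 13.26 and 13.19 in controls and at 13.03, 13.01 and 13.03 in HOXB4 cells. These groups separated with HOXB4 2 on the side of HOXB4 1 and 3, at a difference of -0.20 (SE 0.08, limma adjusted p = 0.605). Mybbp1a was named for the smallest p of its list, which favours genes whose HOXB4 arrays agree. Hdac3, a deacetylase of corepressor complexes, differed by -0.16 (SE 0.09), also without overlap. The coactivator gene Crtc2 differed by 0.33 (SE 0.19) and the acetyltransferase gene Kat2a by -0.16 (SE 0.12), both with overlap.

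Of 19 measured genes reported elsewhere as targets of PBX, MEIS or PREP proteins, 0 passed and 12 lay lower, near the 60.0% of all genes. Their median difference was -0.06. Hoxb2, a hindbrain HOX gene with PBX and HOX sites in its enhancer, stood at 6.67, 6.65 and 6.19 in controls and at 5.90, 5.82 and 5.68 in HOXB4 cells (difference -0.70, SE 0.15, limma adjusted p = 0.605). All 3 HOXB4 arrays lay below all controls, HOXB4 2 included. Myb, a factor of blood progenitors, stood at 7.27, 8.16 and 7.35 in controls and at 8.98, 7.29 and 8.96 in HOXB4 cells. Its high arrays were control 2, HOXB4 1 and HOXB4 3, the low arrays of Meis2, and its difference was 0.82 (SE 0.49, limma adjusted p = 0.660). Cdkn1a, a cell cycle inhibitor, differed by 0.37 (SE 0.20) and Tlx1, a spleen homeobox gene, by -0.21 (SE 0.11).

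The HOX partners themselves lay lower: 33 of 33 measured cluster genes had a difference below 0, as did 60.0% of all genes, with a median of -0.20 and 0 called. The groups separated for 12 of the 33 in the lower direction, beside 10.2% of all genes and 0 of the 8 cofactors. Hoxb6, Hoxd13 and Hoxc8 had the smallest p after Hoxb2, with differences of -0.88 (SE 0.23), -0.58 (SE 0.17) and -0.47 (SE 0.15), each with limma adjusted p = 0.605. Of the 33 genes, 30 had a mean below that of the median gene, and for Hoxd13 and Hoxc8 only 15 of the 23 background features had means below the lowest value. In these 4 HOX genes HOXB4 2 lay below every control, while in Meis1, Meis2, Meis3 and Pbx4 it lay within them. The 4 HOX genes were named for the smallest p among the 33, which favours genes whose HOXB4 arrays agree. The place of HOXB4 2 in them therefore does not speak for the other HOX genes and sets no contrast with the cofactors. Whether HOX genes and cofactors differ in their response was not tested.

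**Figure D4:**
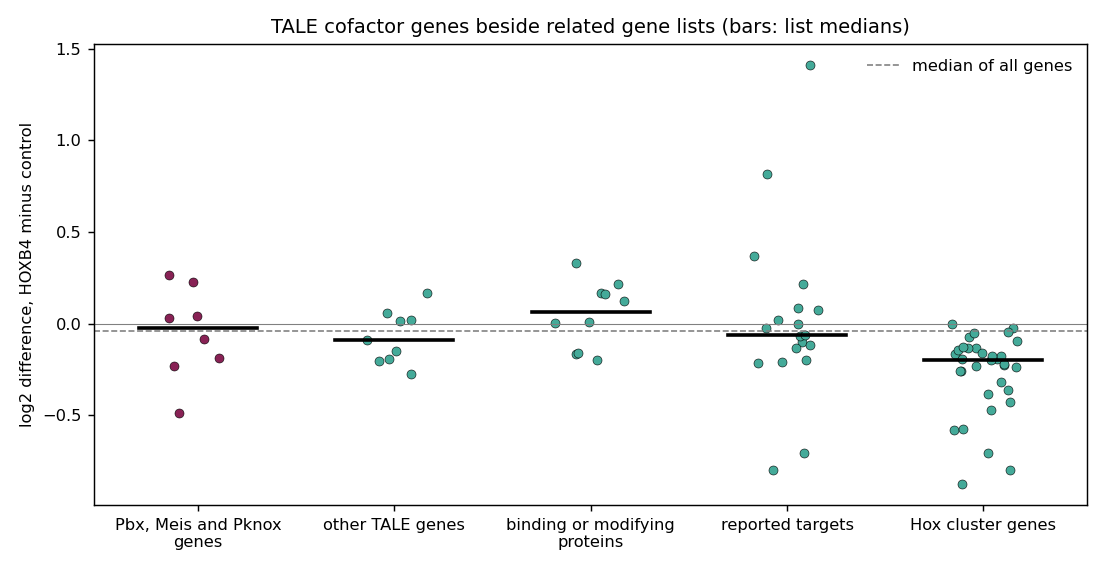
Log2 difference, HOXB4 minus control, of every measured gene (points) in the TALE cofactor group and in 4 related lists, with the list median (bars) and the median of all genes (dashed line). The cofactors lie on both sides of 0 with a median of -0.03, and all 33 HOX cluster genes lie below 0 with a median of -0.20.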

How the data were processed

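RNA of 6 samples of sorted day 4 cells, 3 controls and 3 with HOXB4, was hybridised to 1 array each. The deposited values are log2 summaries made by the authors with Affymetrix Expression Console and RMA, per the submitters' processing notes; no versions or settings were stated there. RMA equalises arrays by design, so a shift shared by most genes would be partly removed. Of 65956 features that were not controls, 31258 named 1 gene after symbols were updated through RefSeq (GRCm38.p6), 1492 named several and 33206 were unnamed here. Each of 30702 genes was represented by its brightest single-gene feature. The groups were compared over all genes by limma 3.58.1 under R 4.3.3, through lmFit and eBayes, as a two-sided test with p adjusted after Benjamini-Hochberg, called below 0.05, and without blocking on replicate number. SE means limma's moderated standard error. The fit was tested on simulated data. Python 3.11.15 with numpy 2.4.6, pandas 2.3.3 and matplotlib 3.10.9 made tables and plots. The cofactors and gene lists were chosen with earlier results of these data known. Named beside the cofactors are the 4 genes of smallest p in each list, the 4 nearest in pattern to Meis2 and, chosen later, neighbours by position. Alternatives were the replicate block, array weights, other priors, 2 scalings, a filter on dim features, other feature rules, an exact permutation test, each array left out, and, added after the data were seen, both arrays of a number left out. With 3 arrays a group, precision is limited by their number.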

Additional observations from a re-analysis of the deposited data

How the results depend on the processing

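None of the 8 cofactors was called in the main fit, in any of the 10 alternatives that kept all arrays or in any of the 6 fits without 1 array, where the number of all genes called ran from 0 to 46 (46 without HOXB4 2). Without both arrays numbered 2, chosen after the data were seen, 1 cofactor (Meis2, -1.09) and 817 genes were called; without both arrays numbered 1 or 3, 0 were. The median of the cofactor differences ran from -0.09 to -0.004 without 1 array and stayed within 0.09 of the main value under every alternative. That bound is the SD between arrays, within groups, of the cofactors' median log2 level, and not the error of the median difference. Meis1, Meis2, Meis3, Pbx4 and Pbx2 kept their sign in each fit without 1 array. Pbx3 ran from -0.08 to 0.09 there, Pknox1 from -0.08 to 0.16 and Pknox2 from -0.50 to 0.02. Without both arrays of a number, Pbx2 ran from -0.20 to 0.0138, Pbx3 from -0.13 to 0.11, Pknox1 from -0.0895 to 0.26 and Pknox2 from -0.74 to 0.18. The cause was not tested. Deviations from the group mean of arrays that share a number correlated at -0.40, -0.59 and -0.35 across genes for numbers 1, 2 and 3, so arrays of a number did not deviate together; whether a number marks a shared experiment is not stated in the labels. With the replicate block the 8 differences were the same by construction, Meis2 at -0.49, with limma adjusted p from 0.923 to 0.983, and 1294 genes had an unadjusted p below 0.05. Without moderation, 0 genes were called and 1974 had an unadjusted p below 0.05. The exact permutation test gave 0.2 to 0.8 for the 8 genes and cannot go below 0.1. All 8 passed the filter on dim features, Pbx4 in 4 arrays only.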
